A study of Mus musculus with 24 samples.

Results

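The genes described here encode 10 costimulatory and checkpoint proteins, Cd80, Cd86, Cd40, Cd83, Icosl, Cd274, Pdcd1lg2, Tnfsf4, Tnfsf9 and Btla. They were taken by name, and all 10 were found among the 22180 genes with a single symbol on the array, each with 1 probe row. The study hybridised RNA of sorted stromal cells, taken from gonadal fat pads of C57Bl/6 males, to 24 arrays in 9 groups. The mice, whose age the sources used here do not state, had eaten a normal diet (ND), a high-fat diet with 60% fat (HFD), or the HFD for 12 weeks followed by 8 weeks without it (weight loss, WL). Preadipocytes (PA), from which fat cells form, were sorted beside dendritic cells (ATDC) and macrophages (ATM) of the adipose tissue. The macrophages were divided by CD11c, the integrin that Itgax encodes.

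There were 2 arrays of ND, 3 of HFD and 2 of WL mice for CD11c- ATM. CD11c+ ATM had 3 arrays of HFD and 3 of WL mice. ATDC came from ND (2) and HFD mice (3), and PA from ND (3) and HFD mice (3). Per the series design, most samples were pools: the ND ATM and ATDC of 4 mice, the HFD samples and the PA of 3 to 4 mice each. Whether WL samples were pools is not stated in these sources, and CD11c+ ATM of ND mice were not collected because they were scarce. What the p-values weigh is thus the spread of such samples and not of single mice.

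T cells that recognise an antigen respond fully when the presenting cell also shows them costimulatory ligands. CD80 and CD86 bind CD28, which activates the T cell, and CTLA-4, which restrains it. ICOSL binds ICOS, OX40L (from Tnfsf4) and 4-1BBL (from Tnfsf9) bind receptors of the TNF receptor family, and CD40 receives a signal back from the T cell. PD-L1 (from Cd274) and PD-L2 (from Pdcd1lg2) bind PD-1, an inhibitory checkpoint receptor. BTLA is itself an inhibitory receptor, bound by HVEM (from Tnfrsf14). In fat, macrophages and dendritic cells are the usual presenting cells.

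Promoters are shown for the 4 genes with a called difference that did not simply divide myeloid cells from preadipocytes and for which a window was supplied. Windows run from 250 bases before to 50 bases after the start of a RefSeq transcript (build GRCm38.p6), and 5 of the 10 genes had one. All 4 lie on the plus strand, 5′ to 3′. Each window was searched on both strands for TGANTCA (bound by AP-1 factors), GAGGAAG (PU.1), TTCNNNGAA (the GAS element of STAT factors) and by name for the core of the interferon element ISRE and the NF-kappaB motif. Capitals mark the matches. The windows are Cd80 at chr16:38458683-38458982, Btla at chr16:45224087-45224386, Icosl at chr10:78069118-78069417 and Cd274 at chr19:29367188-29367487.
Cd80: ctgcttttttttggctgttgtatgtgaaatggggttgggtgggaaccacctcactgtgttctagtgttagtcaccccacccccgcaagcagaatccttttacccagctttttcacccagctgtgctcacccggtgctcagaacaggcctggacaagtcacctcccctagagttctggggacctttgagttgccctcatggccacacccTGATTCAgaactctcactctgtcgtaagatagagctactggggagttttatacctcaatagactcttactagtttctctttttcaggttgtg
Btla: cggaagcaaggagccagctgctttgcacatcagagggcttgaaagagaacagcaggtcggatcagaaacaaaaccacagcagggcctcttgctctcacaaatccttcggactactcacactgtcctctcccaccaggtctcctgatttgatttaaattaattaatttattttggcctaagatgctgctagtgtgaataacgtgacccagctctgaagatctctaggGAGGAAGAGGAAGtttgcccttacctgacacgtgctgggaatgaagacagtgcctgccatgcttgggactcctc
Icosl: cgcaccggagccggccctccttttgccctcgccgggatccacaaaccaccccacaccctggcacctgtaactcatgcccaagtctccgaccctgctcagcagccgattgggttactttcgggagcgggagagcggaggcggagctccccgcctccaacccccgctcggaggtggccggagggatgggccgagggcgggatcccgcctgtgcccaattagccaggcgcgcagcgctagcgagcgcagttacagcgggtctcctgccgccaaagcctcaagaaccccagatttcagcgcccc
Cd274: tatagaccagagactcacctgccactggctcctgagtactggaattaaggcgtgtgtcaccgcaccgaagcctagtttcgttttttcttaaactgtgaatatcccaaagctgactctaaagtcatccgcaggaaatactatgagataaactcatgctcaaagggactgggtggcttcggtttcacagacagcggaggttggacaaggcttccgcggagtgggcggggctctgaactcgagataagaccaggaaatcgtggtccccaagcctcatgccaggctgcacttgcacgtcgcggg
The Cd80 window holds 1 AP-1 match, a motif found in 7.81% of 32851 such windows. The Btla window holds 2 PU.1 matches that share a base, a motif found in 13.6% of windows. The Icosl and Cd274 windows hold none of the 5 motifs, of which GAS is found in 8.30%, the ISRE core in 3.44% and NF-kappaB in 4.51% of windows. A match describes letters and not a bound site.

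Values are the deposited log2 expression values, and differences are first group minus second on the log2 scale, ± the standard error (SE) of a limma fit of all 24 arrays. A difference passed when its Benjamini-Hochberg adjusted p over 15496 tested genes lay under 0.05. The median of an array, between 2.96 and 3.15, stood in for background: genes above it on 2 or more arrays entered the tests. Tnfsf4 did so on 0 of 24 arrays and was not tested, Pdcd1lg2 on 2, Btla on 9, Cd40 on 21, Cd83 and Tnfsf9 on 23, and Cd80, Cd86, Icosl and Cd274 on all 24. Levels of different genes come from different probes and are not set against each other. Because these are bulk samples, fewer cells of a type and less RNA per cell cannot be told apart.

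The sorts carried their labelled markers, with overlap. The macrophage list (11 tested genes) had a median level between 9.62 and 10.65 on the ATM arrays, and the dendritic cell list (13 genes) between 7.38 and 8.24 on the ATDC arrays against 4.08 to 4.92 on the ATM arrays. The preadipocyte and fibroblast list (13 genes) lay between 10.40 and 10.94 on the PA arrays. Itgax had a mean of 8.53 on the HFD and 8.82 on the WL CD11c+ ATM arrays. On the CD11c- ATM arrays its mean was 2.89 in ND, 6.13 in HFD and 6.52 in WL mice. It lay above the array median on 0 of 2 ND, 3 of 3 HFD and 2 of 2 WL CD11c- ATM arrays. The CD11c- sorts of HFD and WL mice thus carried Itgax RNA, and its part in the comparisons of these sorts was not tested. Markers of other cells were also present. The macrophage list lay between 8.15 and 9.62 on the ATDC arrays and the list of natural killer (NK) and innate lymphoid cells between 5.15 and 7.99 there. Across genes, r between arrays of the same group lay between 0.878 and 0.982 (21 pairs; genes are not independent replicates). HFD CD11c- ATM replicate 3 (preadipocyte list 9.25 against 7.19 and 7.32), HFD ATDC replicate 1 (NK list 7.32 against 5.15 and 5.21) and ND PA replicate 1 (monocyte list 6.26 against 3.86 and 3.76) stood apart from their groups. WL CD11c+ ATM replicate 1 had the lowest mean correlation with its own group of all 24 arrays (0.882; 0.913 and 0.917 for the other WL CD11c+ arrays, 0.918 for both WL CD11c- arrays) and the lowest array weight (0.274).

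**Figure D1:**
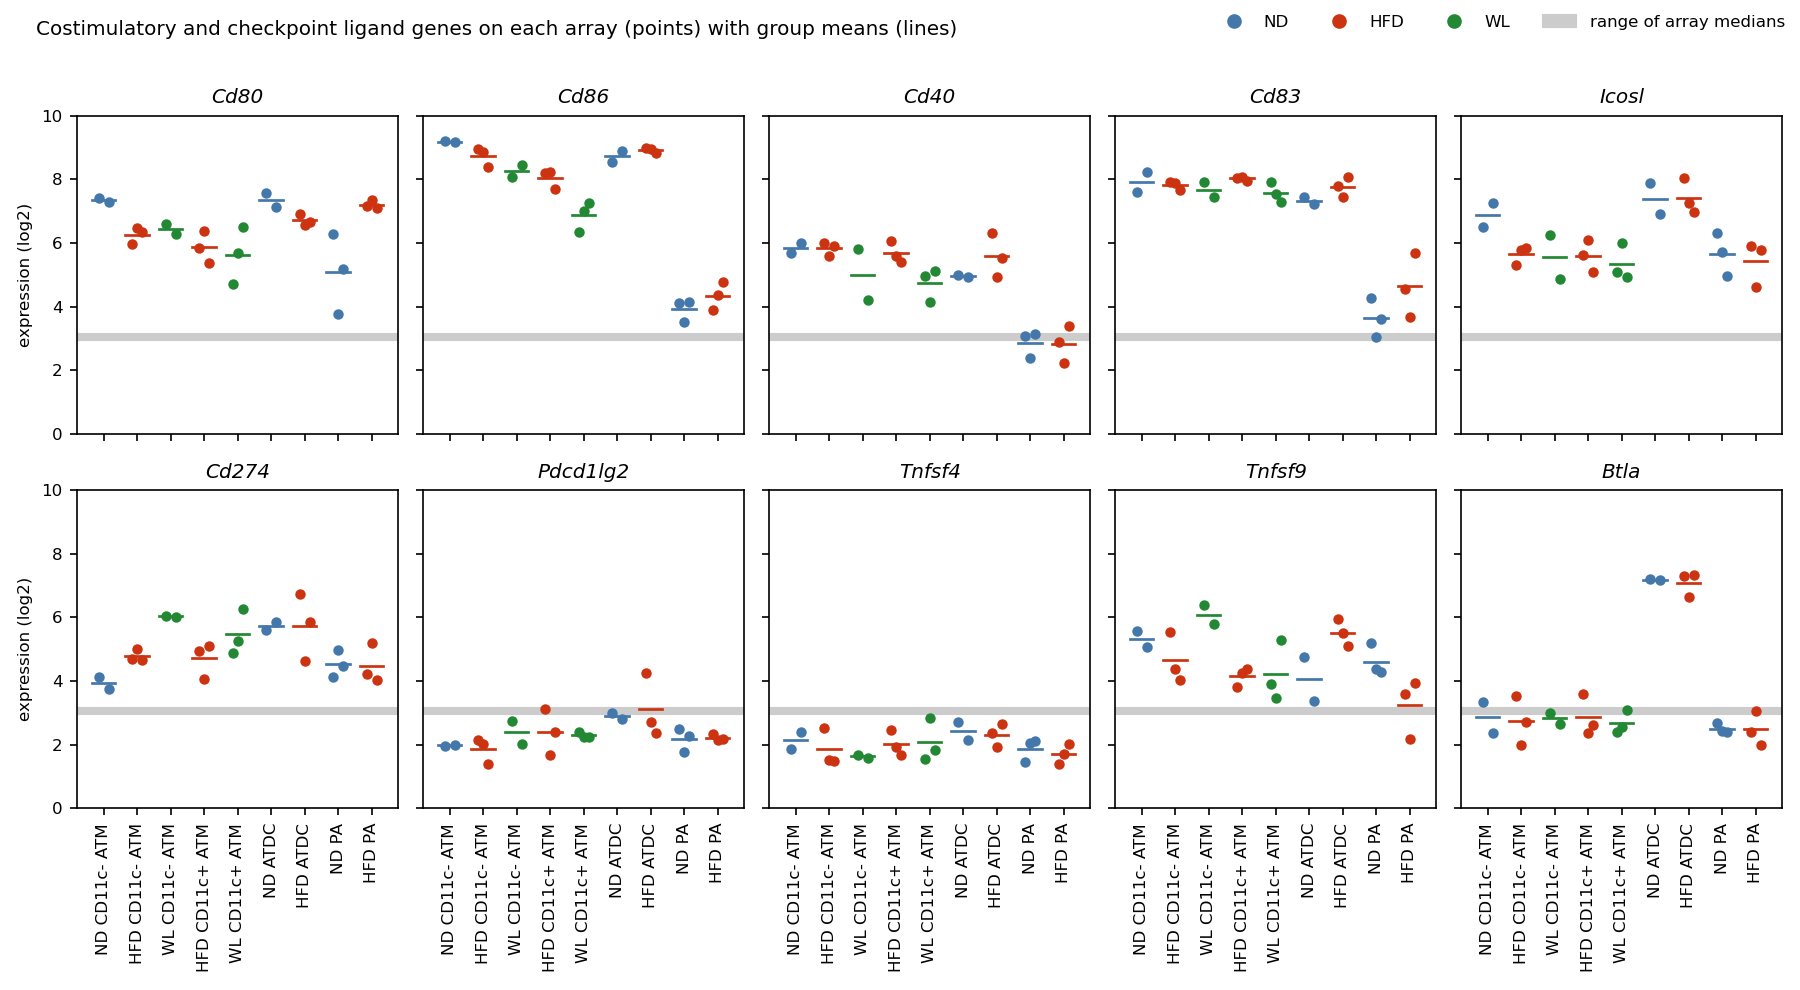
Log2 expression value (vertical axis) of each gene on each of 24 arrays (points) by group (horizontal axis), with group means as lines, diets by colour and the range of the array medians in grey. Btla lies near 7 in both ATDC groups and near the grey band elsewhere; Cd86, Cd40 and Cd83 are low in both PA groups, and Cd80 is not low in HFD PA.

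Cd86, which encodes one of the CD28 and CTLA-4 ligands, was high in every myeloid sort and lowest in preadipocytes. Its value was 9.19 and 9.16 on the ND CD11c- ATM arrays, 8.95, 8.87 and 8.38 on the HFD CD11c- ATM arrays, and 8.06 and 8.44 on the WL CD11c- ATM arrays. CD11c+ ATM had 8.20, 8.22 and 7.69 in HFD mice and 6.34, 7.02 and 7.25 in WL mice. ATDC had 8.55 and 8.89 in ND and 9.0, 8.95 and 8.84 in HFD mice. Preadipocytes lay far below all of these without overlap, at 4.11, 3.52 and 4.15 in ND and 3.89, 4.38 and 4.77 in HFD mice. In the order of group means the neighbours that did not overlap were ND CD11c- ATM above HFD ATDC, ND ATDC above WL CD11c- ATM, HFD CD11c+ ATM above WL CD11c+ ATM, and the latter above HFD PA.

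The fall of Cd86 after weight loss in CD11c+ ATM passed the threshold. WL CD11c+ ATM were lower than HFD CD11c+ ATM by -1.17 ± 0.27 (limma adjusted p = 0.0401), with all 3 WL arrays below all 3 HFD arrays. Cd86 was the only 1 of the 9 tested genes called in this comparison, in which 1.33% of all genes were called. The call was lost with each HFD array left out and with WL replicate 1 or 2 left out (adjusted p up to 0.147 over the 6 leave-outs). Without WL replicate 1, the array least like its group and lowest in Cd86, the difference was -0.90 (adjusted p = 0.137). It was also lost with median centring (adjusted p = 0.0788), array weights (0.0893) and a fit of only the 2 groups (0.164), in which 4 instead of 206 genes were called. WL CD11c+ ATM were also lower than WL CD11c- ATM, by -1.39 ± 0.30 (adjusted p = 0.0310), again as the only 1 of 9 called, against 1.34% of all genes. That call was lost without WL CD11c+ replicate 1 (-1.12, adjusted p = 0.0658) or WL CD11c- replicate 2 (adjusted p = 0.131). It was also lost with array weights (adjusted p = 0.325) and in a fit of only the 2 groups (0.525), in which 1 instead of 208 genes was called.

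Markers of other cells moved in the same comparisons. Against HFD, WL CD11c+ ATM had 3 of 13 preadipocyte genes higher, together with S100a8 and S100a9, which stand in both the monocyte and the neutrophil list. No macrophage gene of 11 passed the threshold. At an unadjusted limma p under 0.05 were 12 of 13 preadipocyte, 6 of 8 mast cell and 1 of 11 macrophage genes. The median differences over these lists were 1.40, 1.83 and -0.43. The mast cell list lay between 2.34 and 4.81 on the HFD CD11c+ arrays and between 5.11 and 6.28 on the WL CD11c+ arrays. On the WL CD11c- arrays it lay between 8.40 and 9.19, with 4 of 8 genes lower in WL CD11c+ than in WL CD11c- ATM. The part of these markers in the Cd86 differences was not tested. Cd86 also differed by -0.48 ± 0.30 between WL and HFD CD11c- ATM (adjusted p = 0.448), and the difference between both weight loss effects was -0.69 ± 0.41 (adjusted p = 0.792), so a weight loss effect particular to CD11c+ ATM was not shown.

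Cd80, the other CD28 and CTLA-4 ligand, had a different order of groups. Its value was 7.41 and 7.28 in ND CD11c- ATM and 7.57 and 7.13 in ND ATDC. It was 5.97, 6.47 and 6.36 in HFD CD11c- ATM, 6.61 and 6.27 in WL CD11c- ATM, and 6.90, 6.58 and 6.66 in HFD ATDC. CD11c+ ATM had 5.83, 6.38 and 5.38 in HFD and 4.72, 5.68 and 6.50 in WL mice. Every HFD array thus lay below every ND array in CD11c- ATM and in ATDC, but the differences of -1.08 ± 0.52 and -0.63 ± 0.52 did not pass (adjusted p = 0.581 and 0.859).

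In preadipocytes Cd80 rose with the HFD. The ND PA arrays had 6.30, 3.78 and 5.17, and the HFD PA arrays 7.17, 7.37 and 7.09, so the diets did not overlap and the ND arrays were widely spread. The difference was 2.12 ± 0.46 (adjusted p = 0.0156), and Cd80 was the 1 gene of 9 called in a comparison that called 2.59% of all genes. It missed the threshold without ND PA replicate 2, without ND PA replicate 3 or without HFD PA replicate 3 (1.47 at the lowest, adjusted p up to 0.102), and in a fit of the 6 PA arrays alone. Without ND PA replicate 1 it was 2.73, the highest of the 6 leave-outs. ND PA lay below ND CD11c- ATM by -2.26 ± 0.52 (adjusted p = 0.00254), and this passed in each of 5 leave-outs. HFD PA were not lower than HFD CD11c- ATM: the difference was 0.94 ± 0.46 (adjusted p = 0.181), with all 3 PA arrays above all 3 ATM arrays.

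Macrophage markers rose in the same diet comparison of preadipocytes, with 8 of 11 genes higher. The list lay at 5.60, 4.96 and 4.20 on the ND PA arrays and at 7.07, 6.21 and 8.12 on the HFD PA arrays, in the order of the replicates, and 10 or 11 of its 11 genes lay above the array median on each. Cd86, which is high in macrophages, differed by 0.42 ± 0.27 between the same arrays (adjusted p = 0.660), and Cd40 by -0.04 ± 0.41 (adjusted p = 0.991). Cd83 differed by 0.99 ± 0.38 (adjusted p = 0.248) and passed without HFD PA replicate 2 (adjusted p = 0.0295). Among the HFD PA arrays, replicate 2 had the highest Cd80 value, 7.37, and the lowest macrophage list. Among the ND PA arrays, replicate 1 had the highest Cd80 value, 6.30, and the highest macrophage list. Of 9 endothelial genes 1 rose (Pecam1, an adhesion molecule of endothelial cells, by 1.56 ± 0.40) and 7 had an unadjusted p under 0.05. That list lay at 4.72, 3.29 and 3.20 on the ND PA arrays and at 4.72, 5.24 and 5.14 on the HFD PA arrays. The part of macrophage or endothelial RNA in the Cd80 rise was not tested beyond these values. The diet effect on Cd80 was larger in PA than in CD11c- ATM by 3.21 ± 0.70, which missed the threshold (adjusted p = 0.0558) and passed without ND PA replicate 1 (3.81, adjusted p = 0.00514).

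**Figure D2:**
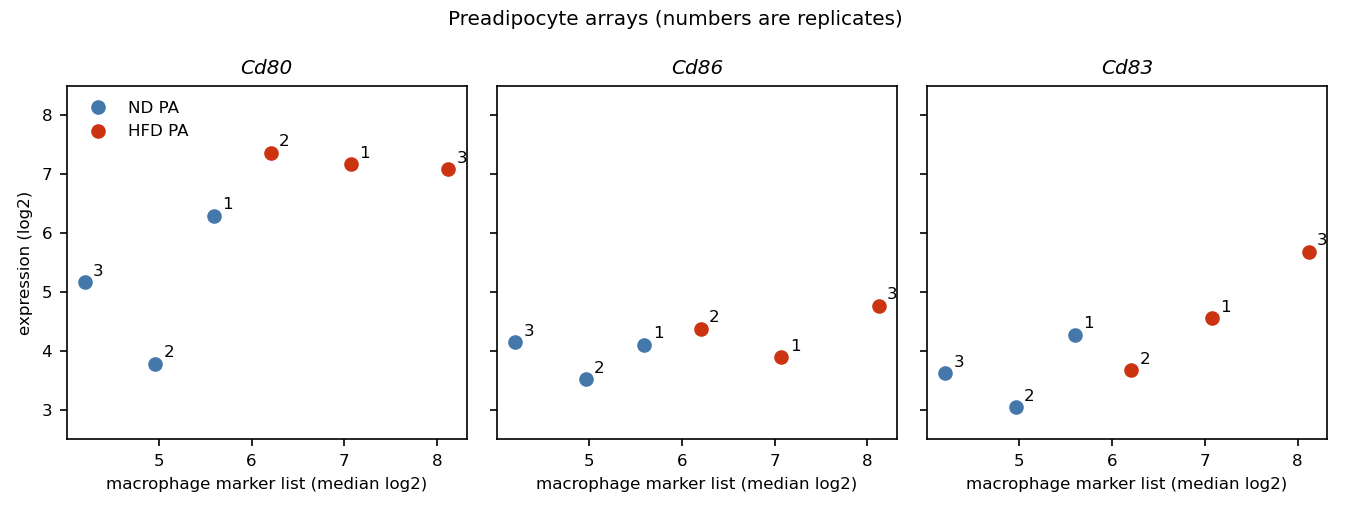
Log2 expression value of Cd80, Cd86 and Cd83 (vertical axis) against the median log2 level of the macrophage marker list (horizontal axis) on the 3 ND PA and 3 HFD PA arrays, numbered by replicate. Cd80 is between 7.09 and 7.37 on the HFD PA arrays over macrophage list levels from 6.21 to 8.12. On the ND PA arrays it is between 3.78 and 6.30 over list levels from 4.20 to 5.60. Cd86 is between 3.52 and 4.77 on all 6 arrays.

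Cd40, the receptor through which helper T cells signal to the presenting cell, divided myeloid cells from preadipocytes. Its value lay between 4.15 and 6.33 on the 18 myeloid arrays and between 2.24 and 3.38 on the 6 PA arrays, 3 of which were below their own median. ND PA were lower than ND CD11c- ATM by -2.97 ± 0.45 (adjusted p = 4.42e-05) and HFD PA lower than HFD CD11c- ATM by -3.0 ± 0.41 (adjusted p = 2.25e-05). Among the myeloid groups the order of means ran from 5.84 in ND CD11c- ATM to 4.75 in WL CD11c+ ATM, and no neighbours in it were free of overlap. WL CD11c+ ATM had 4.98, 4.15 and 5.12 against 6.07, 5.60 and 5.39 in HFD, without overlap, and the difference of -0.94 ± 0.41 did not pass (adjusted p = 0.207). Both ND ATDC arrays lay below both ND CD11c- ATM arrays. That difference of -0.88 ± 0.50 did not pass either (adjusted p = 0.367).

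Cd83, a surface protein of mature dendritic cells and activated lymphocytes, was high in macrophages and in dendritic cells. It lay between 7.22 and 8.22 on the 18 myeloid arrays, with group means from 8.03 in HFD CD11c+ ATM to 7.33 in ND ATDC and overlap between all neighbours in that order. The PA arrays had 4.27, 3.04 and 3.62 in ND and 4.55, 3.67 and 5.69 in HFD mice, all below the myeloid arrays. ND PA were lower than ND CD11c- ATM by -4.26 ± 0.42 (adjusted p = 3.29e-07), and HFD PA lower than HFD CD11c- ATM by -3.20 ± 0.38 (adjusted p = 7.10e-06). HFD ATDC differed from HFD CD11c+ ATM by -0.26 ± 0.38 (adjusted p = 0.836) and from HFD CD11c- ATM by -0.06 ± 0.38 (adjusted p = 0.973). In lean mice both ATDC arrays lay below both CD11c- ATM arrays. That difference of -0.575 ± 0.465 did not pass (adjusted p = 0.584).

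Of the 9 tested genes, 4 were lower in ND PA than in ND CD11c- ATM (Cd80, Cd86, Cd40 and Cd83) and 3 in HFD PA than in HFD CD11c- ATM (Cd86, Cd40 and Cd83), and none was higher in either. These comparisons called 23.4% and 20.7% of all genes. Cd86 had the largest differences, -5.25 ± 0.30 (adjusted p = 9.63e-10) and -4.39 ± 0.27 (adjusted p = 1.99e-08). The median over the 9 genes was -1.22 in ND and -0.30 in HFD mice, against -0.01 and -0.03 over all tested genes. Each of these 7 calls passed in every leave-out.

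Icosl, the ligand of ICOS, was highest in dendritic cells. Its value was 7.88 and 6.91 in ND ATDC and 8.03, 7.27 and 6.97 in HFD ATDC. CD11c- ATM had 6.51 and 7.26 in ND, 5.30, 5.79 and 5.83 in HFD, and 6.26 and 4.88 in WL mice. CD11c+ ATM had 5.62, 6.09 and 5.08 in HFD and 5.10, 6.00 and 4.93 in WL mice. In PA Icosl did not fall to the array median: the 6 arrays lay between 4.62 and 6.33.

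HFD ATDC exceeded HFD CD11c- ATM in Icosl by 1.78 ± 0.46 (adjusted p = 0.0235) and HFD CD11c+ ATM by 1.83 ± 0.46 (adjusted p = 0.0270), without overlap. The first call was lost without HFD ATDC replicate 1, HFD CD11c- replicate 1 or HFD CD11c- replicate 3 (adjusted p up to 0.133). The second was lost without HFD ATDC replicate 1, HFD CD11c+ replicate 1 or HFD CD11c+ replicate 3 (adjusted p up to 0.175). In lean mice the difference between ATDC and CD11c- ATM was 0.51 ± 0.57 (adjusted p = 0.727). All 3 HFD CD11c- ATM arrays lay below both ND CD11c- ATM arrays, by -1.24 ± 0.52, which did not pass (adjusted p = 0.449).

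Cd274, which encodes PD-L1, was above the array median on all 24 arrays, with means that overlapped between all neighbours in their order. It was lowest in ND CD11c- ATM, at 4.13 and 3.74, and higher in ND ATDC, at 5.59 and 5.87. HFD CD11c- ATM had 4.68, 4.99 and 4.68, and WL CD11c- ATM 6.04 and 6.02, so that the 3 diets of CD11c- ATM did not overlap. CD11c+ ATM had 4.95, 4.06 and 5.11 in HFD and 4.89, 5.25 and 6.27 in WL mice. HFD ATDC were widely spread, at 6.73, 4.63 and 5.85, and the 6 PA arrays lay between 4.03 and 5.19.

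WL CD11c- ATM exceeded ND CD11c- ATM in Cd274 by 2.10 ± 0.55 (adjusted p = 0.0267). It was the 1 gene of 9 called there, against 6.18% of all genes. The call was lost on leaving out any 1 of the 4 arrays (adjusted p between 0.0854 and 0.180, difference between 1.90 and 2.29). Marker lists moved in this comparison too: 8 of 8 mast cell genes, 11 of 13 preadipocyte genes, 4 of 8 monocyte genes and 2 of 11 NK genes were higher in WL. Endothelial genes called higher included Kdr (2.26 ± 0.61), Pecam1 (2.25 ± 0.49) and Cldn5 (1.97 ± 0.43). That list lay between 5.55 and 5.83 in WL and between 3.73 and 4.23 in ND CD11c- ATM. The T cell gene Cd3e was higher (1.96 ± 0.55), and of the B cell genes Ebf1 was higher and Bank1 lower. The mast cell list lay at 8.40 and 9.19 in WL and at 2.28 and 2.79 in ND CD11c- ATM, and the preadipocyte list at 9.0 and 8.89 against 6.25 and 5.85. Of the genes of dissociation stress and the immediate early response, Nr4a1 was higher (4.16 ± 0.62) and Hspa1a lower (-2.14 ± 0.58) in WL. The part of all these genes in the Cd274 difference was not tested. Against HFD CD11c- ATM, WL CD11c- ATM differed by 1.25 ± 0.50 (adjusted p = 0.190), and WL CD11c+ from HFD CD11c+ ATM by 0.76 ± 0.45 (adjusted p = 0.347).

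ND ATDC exceeded ND CD11c- ATM in Cd274 by 1.79 ± 0.55 (adjusted p = 0.0479), a call lost with each of the 4 arrays left out (adjusted p up to 0.238), with no filter and with median centring. In obese mice ATDC differed from CD11c- ATM by 0.95 ± 0.45 (adjusted p = 0.281) and from CD11c+ ATM by 1.03 ± 0.45 (adjusted p = 0.255). Both passed without HFD ATDC replicate 2, the array with 4.63 (adjusted p = 0.0403 and 0.0339).

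Pdcd1lg2, which encodes PD-L2 and neighbours Cd274 in the genome with 0 annotated genes between them (RefSeq, GRCm38.p6), was near the array median or below it. The 2 arrays above their median were HFD ATDC replicate 1, at 4.24, and HFD CD11c+ ATM replicate 1, at 3.12. The other 22 arrays lay between 1.41 and 2.99, where order carries no meaning. HFD ATDC differed from HFD CD11c- ATM by 1.25 ± 0.39 (adjusted p = 0.0680) and passed without HFD ATDC replicate 3 (adjusted p = 0.0267). No HFD CD11c- ATM array was above its median, so the least difference, measured to that median, was 0.03. HFD ATDC replicate 1 was also the array with the highest Cd274 and the highest Cd40 value of the 24.

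Tnfsf9, which encodes 4-1BBL, was widely spread within several groups. WL CD11c- ATM had the highest mean, with 6.37 and 5.78, and HFD PA the lowest, with 3.60, 2.19 and 3.94. HFD ATDC had 5.93, 5.51 and 5.11, above ND ATDC at 4.74 and 3.36. ND CD11c- ATM had 5.58 and 5.07, HFD CD11c- ATM 5.54, 4.38 and 4.04, and ND PA 5.19, 4.38 and 4.27. CD11c+ ATM had 3.83, 4.26 and 4.36 in HFD and 3.91, 3.47 and 5.28 in WL mice.

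No Tnfsf9 difference passed in the main fit of all arrays as deposited, which had neither array weights nor a replicate block. The largest of the 13 comparisons was between WL CD11c+ and WL CD11c- ATM, at -1.86 ± 0.57 (adjusted p = 0.116), and the groups did not overlap. HFD ATDC differed from ND ATDC by 1.47 ± 0.57 (adjusted p = 0.420), and HFD PA from ND PA by -1.37 ± 0.51 (adjusted p = 0.229), each without overlap and in opposite directions. HFD PA differed from HFD CD11c- ATM by -1.41 ± 0.51 (adjusted p = 0.0588), which passed without HFD PA replicate 3 or HFD CD11c- replicate 3 (adjusted p = 0.0341 and 0.0385). It also passed with median centring (0.0350) and array weights (0.0419), with the replicate number as a block, and without the 3 arrays that stood apart. Tnfsf4, which encodes OX40L, lay between 1.40 and 2.84 on all 24 arrays, below each array's median. No level, order or fold is given for it.

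Btla, the inhibitory receptor of the set, separated dendritic cells from every other sort. Its value was 7.19 and 7.17 on the ND ATDC arrays and 7.31, 6.63 and 7.33 on the HFD ATDC arrays. The other 19 arrays lay between 1.98 and 3.60, with 4 of them above their own median. HFD against ND made a difference of -0.09 ± 0.44 in ATDC (adjusted p = 0.998).

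Against CD11c- ATM, ATDC were higher in Btla by 4.32 ± 0.48 in ND (adjusted p = 6.58e-06) and by 4.34 ± 0.39 in HFD mice (adjusted p = 8.60e-07). Against HFD CD11c+ ATM, the other CD11c-bearing sort, HFD ATDC were higher by 4.23 ± 0.39 (adjusted p = 2.38e-06). Above their own median were 1 of 2 ND CD11c- ATM, 1 of 3 HFD CD11c- ATM and 1 of 3 HFD CD11c+ ATM arrays, so the size rests partly on values near background. All 3 calls passed in every leave-out, at 3.83 or more. Lymphocyte markers were also higher in ATDC than in CD11c- ATM: 9 of 11 NK genes in ND and 6 of 11 in HFD mice, and 3 of 9 T cell genes in ND mice (0 in HFD, 2 at an unadjusted p under 0.05). Of 9 B cell genes limma called 0 in ND mice (2 at an unadjusted p under 0.05) and 2 lower in HFD ATDC. The NK list lay between 7.31 and 7.99 on the ND ATDC arrays and between 5.15 and 7.32 on the HFD ATDC arrays. The T cell list lay between 6.05 and 6.11 on the ND and between 4.41 and 5.34 on the HFD ATDC arrays. Against HFD CD11c+ ATM, the genes called higher in HFD ATDC included Cd8a of the T cell list (1.82 ± 0.46). Of the NK list they included Klrk1 (3.66 ± 0.52), Gzma (3.21 ± 0.70) and Ncr1 (2.30 ± 0.55). The part of lymphocyte RNA in the Btla differences was not tested.

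**Figure D3:**
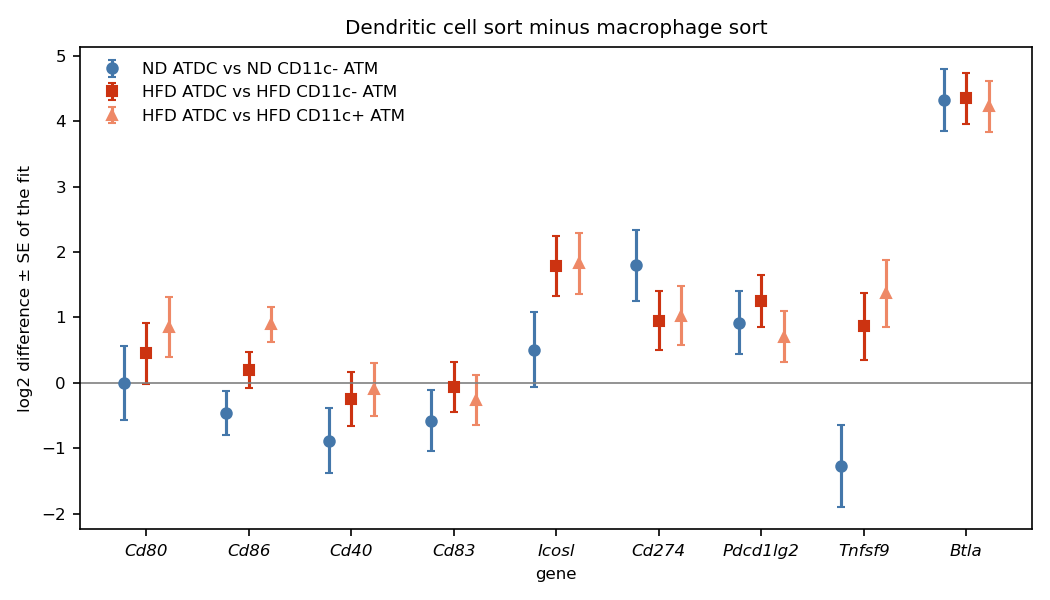
Log2 difference between the dendritic cell sort and a macrophage sort (vertical axis, ± SE of the limma fit) for the 9 tested genes (horizontal axis), with 1 symbol for each of 3 comparisons. Btla lies between 4.23 and 4.34 in all 3; Icosl lies at 1.78 and 1.83 in HFD mice and at 0.51 in ND mice.

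Of the 9 tested genes, 2 were called in each of the 3 comparisons of ATDC with ATM, all of them higher in ATDC. They were Btla and Cd274 in ND against CD11c- ATM (8.27% of all genes called), Btla and Icosl in HFD against CD11c- ATM (6.20%), and Btla and Icosl in HFD against CD11c+ ATM (4.16%). The HFD comparisons share the HFD ATDC arrays. The medians over the 9 genes were 0.00, 0.87 and 0.89, against -0.01, -0.02 and -0.05 over all tested genes. Without the 3 arrays that stood apart, Btla alone was called in the HFD comparisons.

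The partners of these ligands on T cells, and other costimulatory genes, were read from lists. Of 8 partner genes (Cd28, Ctla4, Icos, Pdcd1, Cd40lg, Tnfrsf4, Tnfrsf9 and Tnfrsf14), 2 were higher in ND ATDC than in ND CD11c- ATM, Tnfrsf4 (OX40) by 2.43 ± 0.49 (adjusted p = 0.00284) and Cd40lg (CD40 ligand) by 1.81 ± 0.35 (adjusted p = 0.00225). Tnfrsf4 was also higher in HFD ATDC, by 2.33 ± 0.40 against CD11c- ATM. Of 8 other inhibitory receptors, 3 were higher in ND ATDC and 2 in HFD ATDC against CD11c- ATM. Among them were Cd244a (2B4, of NK and myeloid cells; 4.40 ± 0.39 and 3.74 ± 0.32) and Havcr2 (TIM-3; 2.83 ± 0.41 and 2.34 ± 0.34). NK genes rose in the same comparisons, as given above. T cell genes were also higher in ND ATDC than in ND CD11c- ATM: Lat by 2.73 ± 0.74, Cd3e by 2.44 ± 0.55 and Cd5 by 2.20 ± 0.39. The part of NK and T cell genes was not tested.

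Of 15 dendritic cell maturation genes, 8 were higher in ND ATDC and 9 in HFD ATDC than in CD11c- ATM, and none was lower, with medians of 1.59 and 1.62. They were led by the chemokine genes Ccl22 (6.55 ± 0.93 and 6.07 ± 0.76) and Ccl17 and by Ccr7, the lymph node homing receptor (3.80 ± 0.56 in ND and 4.46 ± 0.46 in HFD mice). Of 8 MHC class II genes, 2 were higher in each, H2-Oa (4.04 ± 0.48 and 4.96 ± 0.39) and H2-Ob, which encode the peptide-loading modulator H2-O. Of 17 NF-kappaB pathway genes, 1 and 2 were higher. The first of them was Traf1, an adaptor of TNF receptors (2.07 ± 0.41 and 2.37 ± 0.33). Of 5 other B7 and butyrophilin genes, 2 were lower in ND ATDC and 1 in HFD ATDC, with Vsig4, a complement receptor of resident macrophages that also restrains T cells, at -6.01 ± 0.94 and -5.35 ± 0.77.

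In preadipocytes on the HFD, 1 of 5 other B7 and butyrophilin genes rose (Btnl9, by 1.04 ± 0.23), beside 1 of 13 interferon-gamma response genes (Cxcl9, a T cell chemokine, by 2.76 ± 0.73). Of 8 other inhibitory receptors 1 rose, Lilrb4a of myeloid cells, by 3.65 ± 0.67. None of the 8 partner genes or 17 NF-kappaB genes passed in limma (2 and 4 at an unadjusted p under 0.05). Against CD11c- ATM, ND PA had lower Vsir, which encodes the checkpoint ligand VISTA (-2.87 ± 0.38), and lower Cd48 (-5.34 ± 0.65). They had higher Nectin3, an adhesion molecule that binds receptors of lymphocytes (2.66 ± 0.35).

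After weight loss, CD11c- ATM had higher Tnfsf10, which encodes the death ligand TRAIL, than in HFD mice (1.77 ± 0.36, adjusted p = 0.0107), as 1 of 5 other TNF family ligands. Cd28 (1.16 ± 0.30, adjusted p = 0.0400) rose as 1 of 8 partner genes, in a comparison in which 1 of 9 T cell marker genes (again Cd28), 3 of 11 NK genes and 6 of 8 mast cell genes rose; their part was not tested. Tnfaip3, an inhibitor of NF-kappaB signalling, rose by 1.52 ± 0.35 as 1 of 17 pathway genes. In the same comparison 2 of 18 genes of dissociation stress and the immediate early response rose, Nr4a1 (3.68 ± 0.56) and Egr1 (1.44 ± 0.38), with a list median of 0.80. Genes of that list also passed in the comparisons of ATDC (1 higher and 4 lower in ND, 1 and 2 in HFD mice) and PA (1 higher and 8 lower in each diet) with CD11c- ATM. Between WL and ND CD11c- ATM, Nr4a1 was higher and Hspa1a lower, as given above for Cd274. The part of this response in the members’ differences was not tested. In WL CD11c+ against HFD CD11c+ ATM 1 of 8 MHC class II genes fell, Ciita, their transcriptional activator, by -1.19 ± 0.27 (adjusted p = 0.0378).

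Several comparisons called none of the 9 genes in limma. These were HFD against ND CD11c- ATM (0.613% of all genes called; 1 member at an unadjusted p under 0.05), HFD against ND ATDC (0.258%; 1) and HFD CD11c+ against HFD CD11c- ATM (0.00645%; 1). WL against HFD CD11c- ATM called none either (2.96%; 2). Cd86 was that member between HFD CD11c+ and HFD CD11c- ATM, at -0.70 ± 0.27 (adjusted p = 0.662). Of the 3 interactions, none called a member: ATDC against CD11c- ATM in the diet effect (0.0581%; 1), PA against CD11c- ATM in the diet effect (0.277%; 2), and CD11c+ against CD11c- ATM in the weight loss effect (0.161%; 0).

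**Figure D4:**
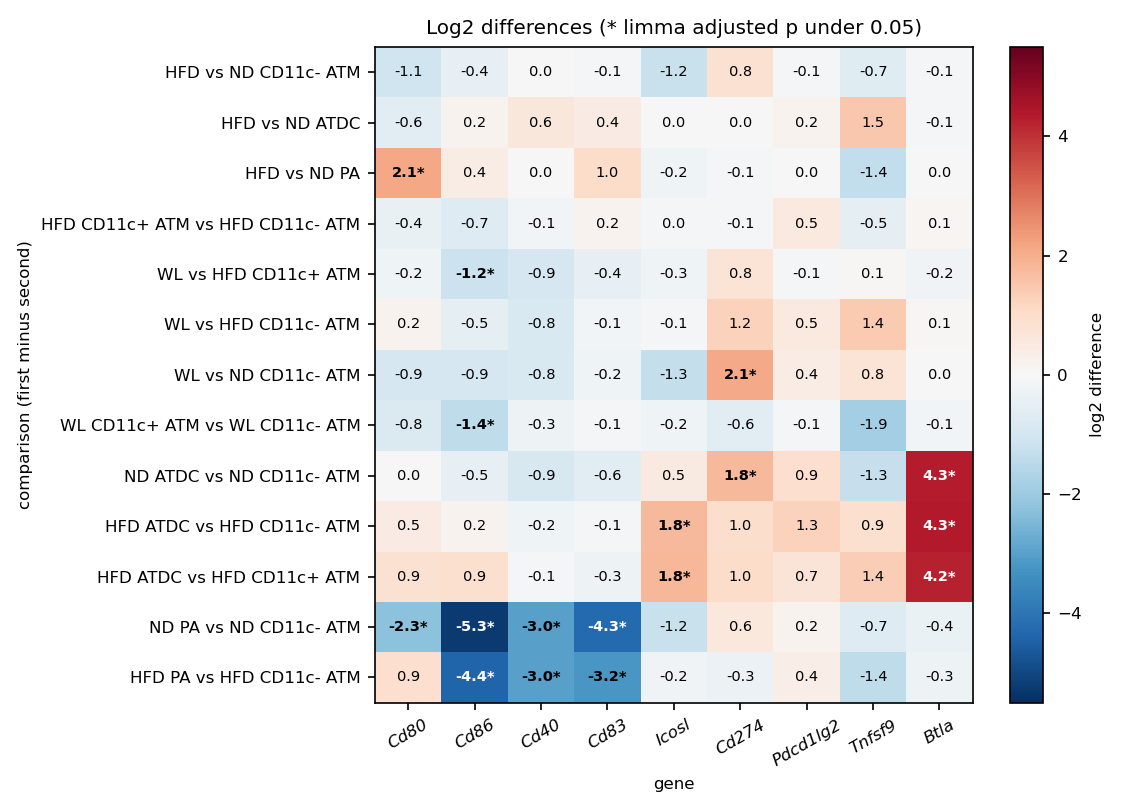
Log2 difference (colour and number, first group minus second) of the 9 tested genes (columns) in 13 comparisons (rows), with a star where the limma adjusted p lay under 0.05. The starred cells gather in the Btla column of the ATDC comparisons and in the Cd86, Cd40 and Cd83 columns of the PA comparisons.

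The genes most like each member were sought by the Pearson correlation of the 9 group means among tested genes, as a description over groups that share arrays and cell types. For Cd86 they were Il10ra (r = 0.989), Rasgrp4 (0.986) and Tab2 (0.984), for Cd40 Ptpro (0.989), Ncoa3 (0.987) and Arrb2 (0.986), and for Cd83 Unc93b1 (0.996), Gpr183 (0.995) and Lst1 (0.993). For Btla they were Xcr1 (0.994), Klri1 (0.993) and Fcrla (0.992), which had r = 0.943, 0.958 and 0.973 with it over the 24 arrays. Icosl was closest to Mdp1 (0.962), St3gal5 (0.957) and H2-Ob (0.947), and Cd274 to Dusp12 (0.963), Evpl (0.950) and Il1b (0.948). Over the 24 arrays Il1b kept r = 0.784 with Cd274, but Dusp12 had 0.402. The closest genes of Cd80 (Slc22a13, 0.931; D5Ertd605e, 0.926; Ifit3b, 0.901) had r between 0.377 and 0.507 over the arrays, and those of Tnfsf9 (Mllt10, 0.934; Necab3, 0.921; Pabpc6, 0.913) between 0.465 and 0.660.

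Among the members, the group means of Cd86, Cd40 and Cd83 ran together (r between 0.937 and 0.959 over 9 groups). Cd80 had r = 0.423 with Cd86, its partner in binding CD28, and r = 0.231 with Cd40. Btla ran with Icosl (r = 0.868) and with Pdcd1lg2 (r = 0.884), whose values lay near the array median or below it. Cd86, Cd40 and Cd83 had their lowest means in both PA groups, and Btla and Icosl their highest in both ATDC groups. How far the correlations rest on these contrasts was not computed, and they carry no test.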

How the data were processed

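Per the labels' protocols, RNA of sorted live cells was amplified as cDNA with a NuGEN kit, given a biotin label and put on 1 array per sample. The authors deposited normalized log2 values (24 columns, 41345 probe rows). Per the submitters' processing notes they used RMA, oligo and limma; the sources used here give no version or setting. RMA quantile-normalizes arrays against each other. No scanner file was used here. Each probe’s own background is therefore unknown, and the number of arrays limits the precision.

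Arrays were grouped by title. Rows with 1 gene symbol in the platform annotation (23521) named 22180 genes; of several rows, that with the highest mean was used. A single limma 3.58.1 fit (R 4.3.3; lmFit, eBayes; 15 residual degrees of freedom) held all 24 arrays with 1 mean per group and served 13 comparisons and 3 interactions. Tests were two-sided, with Benjamini-Hochberg adjustment over 15496 genes, and the code was tested on simulated data. Leaving out an array of a group of 2 assumes that the lone array varies like the other groups. Members, lists, rules and alternatives were chosen with earlier results of these data known. Named were all members, up to 3 called genes of a list with the largest changes, and the 3 closest genes of members whose group means spanned at least 2 log2 units.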

Additional observations from a re-analysis of the deposited data

Results flagged for a closer look

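Cd80 differed between the diets in opposite directions in different sorts, without overlap in PA, CD11c- ATM or ATDC, but only the rise in PA passed the threshold (2.12 ± 0.46, limma adjusted p = 0.0156). The differences in CD11c- ATM (-1.08 ± 0.52, adjusted p = 0.581) and ATDC (-0.63 ± 0.52, adjusted p = 0.859) did not. Its value was higher on every HFD PA array than on every ND PA array, and lower on every HFD than on every ND array in CD11c- ATM and in ATDC. The diet effect in PA exceeded that in CD11c- ATM by 3.21 on the log2 scale (limma adjusted p = 0.0558, not past the threshold), and that in ATDC by 2.76, a difference that was not tested. Tnfsf9 was lower on every HFD than on every ND array in PA and higher in ATDC. Neither of these differences passed (adjusted p = 0.229 and 0.420). They differed from each other by -2.84, which was not tested. Of the 9 tested genes, these were the ones that met this criterion. The share of all 15496 tested genes that would meet it was not computed. How unusual it is in groups of 2 or 3 arrays is therefore not known.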

How the results depend on the processing

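Counts of the 9 tested genes past the threshold were small, so single calls decide them. They were unchanged under every alternative run for HFD against ND CD11c- ATM, HFD against ND ATDC, HFD CD11c+ against HFD CD11c- ATM and WL against HFD CD11c- ATM (0 in each). For ND PA against ND CD11c- ATM the count of 4, and for HFD PA against HFD CD11c- ATM the count of 3, stayed within 1.5 times. Array weights gave 2 instead of 1 in HFD against ND PA, and 0 instead of 1 in WL against HFD CD11c+ ATM, WL against ND CD11c- ATM and WL CD11c+ against WL CD11c- ATM. A fit of only the groups compared gave 0 instead of 1 in HFD against ND PA, WL against HFD CD11c+ ATM and WL CD11c+ against WL CD11c- ATM. Median centring gave 0 instead of 1 in WL against HFD CD11c+ ATM. In ND ATDC against ND CD11c- ATM the count of 2 was 1 with no filter, with median centring and with the replicate number as a block. Without the 3 arrays that stood apart, an alternative chosen after seeing the data, it was 1 instead of 2 in both HFD ATDC comparisons. In the interactions it was 1 instead of 0 with that alternative, median centring, eBayes with trend and robust, or array weights, each time Cd80 in PA against CD11c- ATM. The cause of these changes was not tested.

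The counts of all genes called moved as well. A fit of only the groups compared called 3 instead of 95 genes in HFD against ND CD11c- ATM, 0 instead of 40 in HFD against ND ATDC (1037 at an unadjusted limma p under 0.05), 180 instead of 401 in HFD against ND PA, 31 instead of 459 in WL against HFD CD11c- ATM and 222 instead of 957 in WL against ND CD11c- ATM. It called 660 instead of 1282, 395 instead of 960 and 392 instead of 644 in the ATDC comparisons, in the order ND, HFD against CD11c- and HFD against CD11c+ ATM. Array weights gave 206 instead of 95 in HFD against ND CD11c- ATM, 1119 instead of 401 in HFD against ND PA, 173 instead of 459 in WL against HFD CD11c- ATM, 594 instead of 957 in WL against ND CD11c- ATM, 43 instead of 208 in WL CD11c+ against WL CD11c- ATM, 26 instead of 1 in HFD CD11c+ against HFD CD11c- ATM and 1176 instead of 644 in HFD ATDC against HFD CD11c+ ATM. Without the 3 arrays the counts were 34 instead of 95 in HFD against ND CD11c- ATM, 317 instead of 206 in WL against HFD CD11c+ ATM, and 446 instead of 960 and 280 instead of 644 in HFD ATDC against CD11c- and CD11c+ ATM. With the replicate block they were 49 instead of 95 in HFD against ND CD11c- ATM and 129 instead of 208 in WL CD11c+ against WL CD11c- ATM. In the interactions the counts of 9, 43 and 25 ranged from 0 to 11, from 30 to 234 and from 2 to 27 (diet effect in ATDC, diet effect in PA, weight loss effect).

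Leaving out single arrays gave 0 to 2 calls in HFD against ND PA, 0 to 1 in WL against HFD CD11c+ ATM, in WL CD11c+ against WL CD11c- ATM and in the interactions, and 0 in WL against ND CD11c- ATM. It gave 1 in ND ATDC against ND CD11c- ATM, 1 to 3 in HFD ATDC against CD11c- ATM and against CD11c+ ATM, and 3 to 4 in HFD PA against HFD CD11c- ATM. No called difference of a member changed sign under any alternative run. The titles number replicates in every group, but same-numbered arrays did not deviate together in most pairs (r of deviations between -0.131 and 0.252), so the numbers were not taken as pairs; the replicate block changed no other count of members called by more than 1.5 times. With the block Cd274 in ND ATDC against ND CD11c- ATM no longer passed (adjusted p = 0.0633), while Pdcd1lg2 in HFD ATDC against HFD CD11c- ATM (0.0274) and Tnfsf9 in HFD PA against HFD CD11c- ATM (0.0333) did. Median centring moved the median of all genes by no more than it did in ND PA against ND CD11c- ATM, from -0.01 to -0.18.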
